A study of Mus musculus with 157 samples.

Results

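The genes described here were 10 regulators of entry into and passage through mitosis: the kinase Cdk1 with its cyclins Ccnb1, Ccnb2 and Ccna2, the kinases Plk1, Aurka and Aurkb, and the spindle checkpoint kinases and kinase-like proteins Bub1, Bub1b and Ttk. They were taken by gene symbol from the table of counts per gene and gradient fraction, which holds 19600 genes, and each of the 10 symbols matched 1 row. The table comes from splenic B cells of C57BL/6Babr mice, young adults per the study's methods, that were isolated with a kit and activated in culture with lipopolysaccharide (LPS, 10 µg/ml). In the LPS group the cells had 48 h of LPS and no drug. In the LPS+ET group 48 h of LPS was followed by 4 h with 20 µM etoposide, a topoisomerase II poison that breaks both DNA strands. In the LPS+ET+KU group 47 h of LPS was followed by 1 h with 10 µM KU55933, an inhibitor of the DNA damage kinase ATM (spelled KU59933 in part of the labels), and then by the same etoposide treatment. By these times both drug groups were in culture for longer than the LPS group, so drug and time in culture cannot be told apart. For a flow cytometry experiment, a figure legend of the paper instead puts etoposide in the last 4 h of the 48 h. On that timing the culture times would be equal, and which timing held for these gradients was not settled. All groups received 100 µg/ml cycloheximide for 3 min before lysis, which holds ribosomes on mRNA. Cytoplasmic extracts were separated on sucrose gradients, with 4 gradients per group, and 3′ end tags were counted in fractions 4 to 7 (monosomes), 8 to 10 (light polysomes) and 11 to 16 (heavy polysomes). The extracts were of bulk cultures, so fewer cells of a cell cycle phase, less mRNA per cell and less of the mRNA on ribosomes cannot be told apart. The paper reports a global reduction of polysome assembly by etoposide, which levels relative to a gradient's total do not show. The total cellular mRNA that the paper also measured is not used here.

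Cdk1 bound to cyclin A2 or to a B-type cyclin is the kinase that drives cells into mitosis, and destruction of these cyclins ends it. Plk1 and the Aurora kinases build the spindle, mature the centrosomes and correct the attachment of chromosomes to microtubules. Ttk, Bub1 and Bub1b (which encodes BubR1) act at unattached kinetochores and hold back the anaphase-promoting complex until each chromosome is attached. Their mRNAs are known to accumulate in G2 and M phase and to be low in G1, so they are used as markers of cycling cells. LPS drives resting splenic B cells to divide, and DNA damage is known to stop cycling cells before mitosis.

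Start-site regions of these genes are known to carry CCAAT boxes and the letters TTTGAA, the core of the cell cycle genes homology region. Both were searched on both strands, as CCAAT or ATTGG and as TTTGAA or TTCAAA, in RefSeq windows of 250 bases before to 50 bases after the start site (build GRCm38.p6) and no CCAAT match overlapped a TTTGAA match in these genes. Windows were matched for 8 of the 10 genes, and Aurkb and Ccna2 had no entry. CCAAT lay in 8 of the 8 windows and in 37.4% of all 32851 windows, and TTTGAA lay in 6 of the 8 (in those of all but Ccnb1 and Bub1) and in 17.9% of all windows. A match is a description of the letters and not evidence of binding. The 120 bases before the start site are shown 5′ to 3′ on the gene's strand for Cdk1, Ccnb1, Ccnb2, Plk1 and Aurka, which have the largest log2 differences from LPS under LPS+ET below, with matches in capitals, at chr10:69352913-69353032 (minus strand) for Cdk1, chr13:100786487-100786606 (minus) for Ccnb1, chr9:70421555-70421674 (minus) for Ccnb2, chr7:122159315-122159434 (plus) for Plk1 and chr2:172370571-172370690 (minus) for Aurka.
Cdk1: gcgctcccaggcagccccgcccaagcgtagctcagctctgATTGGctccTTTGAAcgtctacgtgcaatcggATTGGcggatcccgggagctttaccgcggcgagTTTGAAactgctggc
Ccnb1: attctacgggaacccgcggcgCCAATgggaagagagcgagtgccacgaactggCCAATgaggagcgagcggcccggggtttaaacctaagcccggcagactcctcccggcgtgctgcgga
Ccnb2: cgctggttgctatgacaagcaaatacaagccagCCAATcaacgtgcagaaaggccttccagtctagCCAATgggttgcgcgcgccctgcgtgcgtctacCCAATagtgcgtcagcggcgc
Plk1: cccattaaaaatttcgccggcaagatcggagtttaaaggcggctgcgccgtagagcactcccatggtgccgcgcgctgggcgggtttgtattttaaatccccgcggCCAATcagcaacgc
Aurka: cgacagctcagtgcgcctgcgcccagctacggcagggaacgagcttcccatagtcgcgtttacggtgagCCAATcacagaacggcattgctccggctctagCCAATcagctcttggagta

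In Plk1, Aurka, Ccnb2, Ttk and Bub1b a TTTGAA or TTCAAA match lay after the start site. It is shown for Plk1 (chr7:122159453-122159482, plus), Aurka (chr2:172370521-172370550, minus) and Bub1b (chr2:118598239-118598260, plus), again with the match in capitals.
Plk1: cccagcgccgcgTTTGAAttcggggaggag
Aurka: aaaaggagaaccTTTGAAttgtaacggctg
Bub1b: agagacgttaaaTTTGAAactt

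The counted tags come from poly(A) sites at the 3′ end of each gene, so a level does not have to be divided by transcript length. Of the 10 genes, 8 were counted at a single site, and Aurka and Ttk at 2 sites each (Aurka 87.4% and 12.6% of its counts, Ttk 91.1% and 8.92%). The Plk1 site at chr7:122169877 lay 4 bases beyond the annotated transcript end and the second Ttk site, at chr9:83872984, lay 595 bases beyond it. All other sites lay in annotated UTRs (GENCODE release M21, GRCm38).

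Gradients are named by treatment and by the tag LUL15 to LUL18 in the column names, each tag holding 1 gradient of each treatment. The column names do not say what the tag stands for, and it is called a library pool here. Library totals ran from 14724 to 4170688 counts (median 811932, 156 libraries), 12 of them held under 100000 counts, and 44 of the 1560 combinations of library and gene held no count of the gene. Gradient totals ran from 6404957 (LPS+ET LUL16) to 21449781 counts (LPS+ET+KU LUL16). LPS+ET LUL16 also stood apart in composition, with 30.4% of its counts in heavy polysomes against 60.5 to 68.2% in the other LPS+ET gradients. That share was 52.3 to 62.4% in the LPS gradients and 37.6 to 55.5% in the LPS+ET+KU gradients. Levels summed by counts therefore weight the fractions unequally between gradients. Gradient levels are given as counts per 1000000 counts (CPM) of the gradient, its total being scaled by the TMM factor of edgeR. Of the B cell markers fixed for this check, 6 of 6 were present. Their summed levels were 2146 to 2942 CPM in LPS, 1396 to 2079 under LPS+ET and 1601 to 2524 with LPS+ET+KU. The LPS+ET gradients thus lay wholly below the LPS gradients in this sum, and LPS+ET+KU overlapped both. T cell markers (4 of 6 in the table) summed to 0 to 2.31 CPM, erythroid markers (3 of 4) to 0 to 1.37 CPM with Alas2 at 0 in all LPS gradients, and myeloid markers (6 of 6) to 34.7 to 83.7 CPM in LPS, 45.0 to 129.6 in LPS+ET and 54.0 to 88.4 in LPS+ET+KU. The part of these levels in the results below was not tested.

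Ribosome-associated mRNA, the sum of fractions 4 to 16, of these genes was lower after etoposide, with and without the ATM inhibitor. The 10 genes together held 1782 ± 257.5 CPM in LPS, 655 ± 91.4 under LPS+ET and 465 ± 209 with LPS+ET+KU (mean ± SD, n = 4 gradients each). Per gradient the sum ran from 1557 to 2149 CPM in LPS, from 545 to 761 in LPS+ET and from 338 to 777 in LPS+ET+KU, so both drug groups lay wholly below LPS. Called with edgeR at a Benjamini-Hochberg adjusted p under 0.01 over 12755 genes, 5 of the 10 fell in LPS+ET (Ccnb1, Ccnb2, Plk1, Aurka and Bub1b), where 4.81% of all genes were called lower. For LPS+ET+KU against LPS, 8 of 10 fell (those 5 with Cdk1, Ccna2 and Aurkb), where 4.42% of all genes were called lower, and no member was called higher in either. With the library pool as a replicate block, edgeR called 6 members lower for LPS+ET (those 5 with Cdk1, where 12.8% of all genes were called lower) and 10 for LPS+ET+KU (13.3% of all genes). These comparisons share the LPS gradients, so they do not support each other. The median log2 difference of the 10 genes was -1.13 for LPS+ET and -1.57 for LPS+ET+KU against LPS, beside 0.03 and 0.09 over all genes tested. For 8 of 10 genes all 4 LPS+ET gradients lay below every LPS gradient, as for 12.7% of all genes, and the same held for 8 of 10 genes in LPS+ET+KU, as for 12.1% of all genes.

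**Figure D1:**
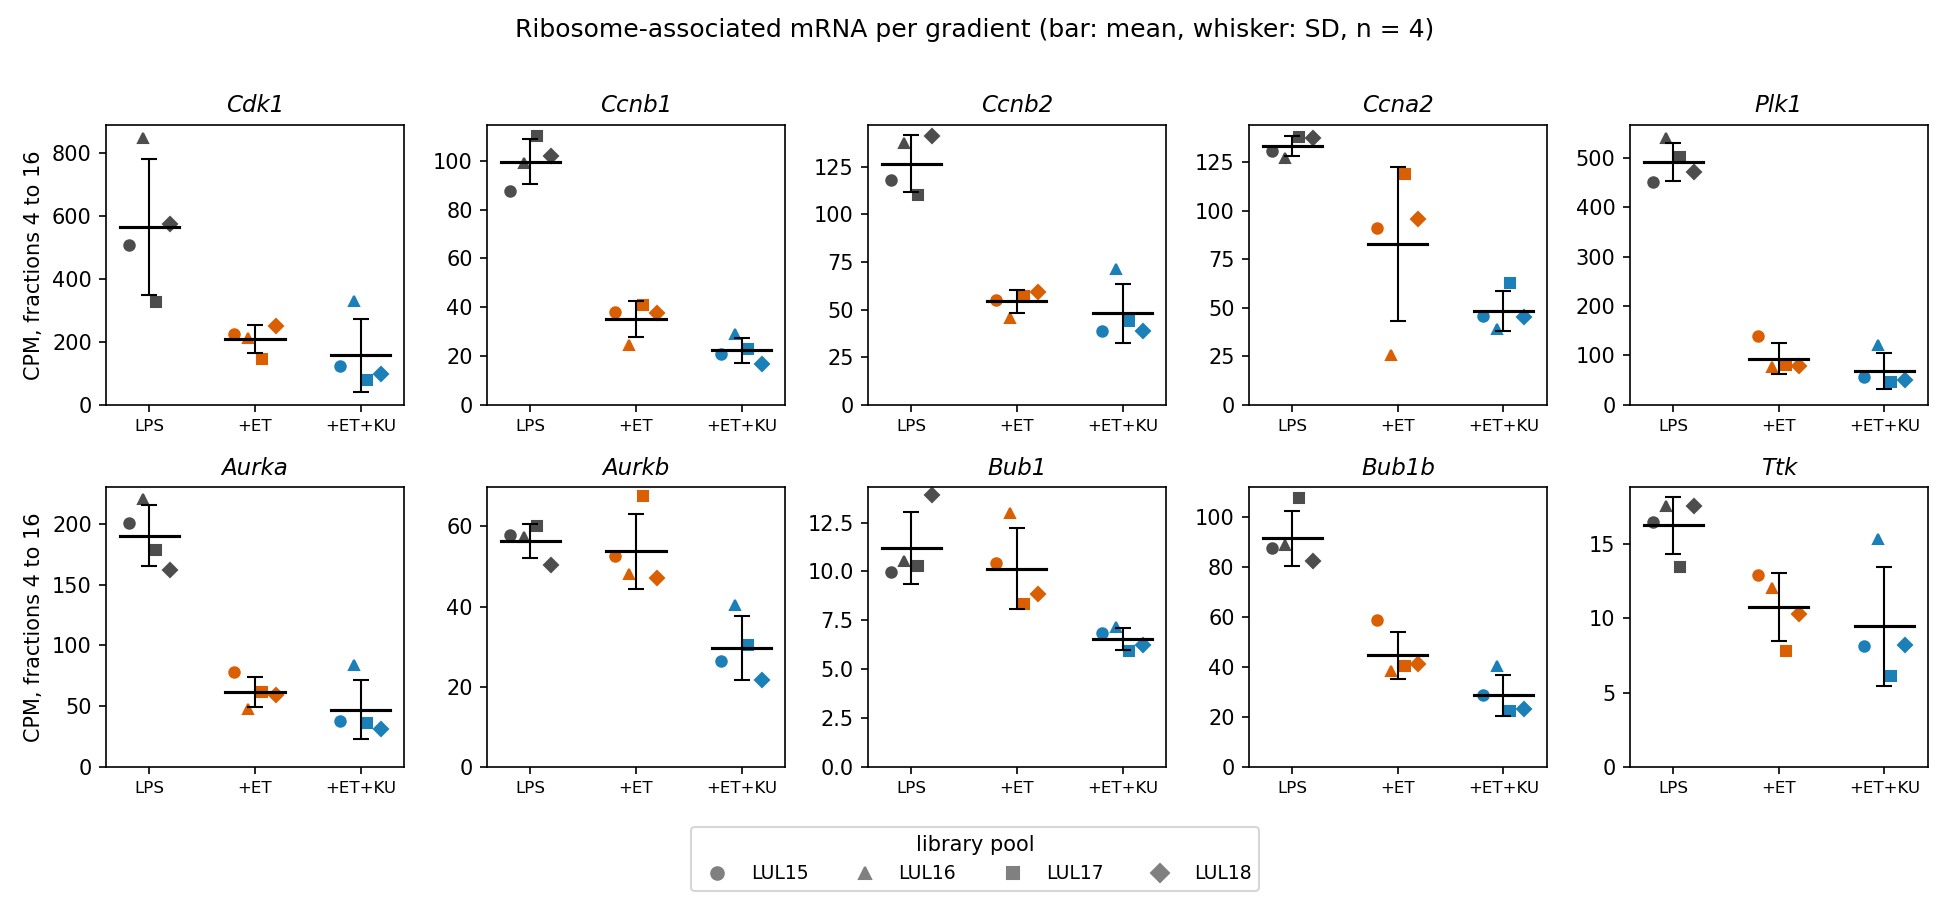
Ribosome-associated mRNA of each gene in CPM (vertical axis, from 0) for the 3 treatments, 1 point per gradient with its pool as the symbol, bar for the mean and whisker for the SD (n = 4). Drug-treated points lie below the LPS points for most genes, and the LUL16 triangle is the highest LPS+ET+KU point for 9 of the 10 genes.

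Among the cyclins and their kinase, Cdk1 was the most abundant of the 10 genes in LPS. Its level was 509 CPM in LUL15, 850.0 in LUL16, 327 in LUL17 and 574 in LUL18. After etoposide it was 225, 213, 146 and 249.9 CPM in the same pools, and with the ATM inhibitor as well 123, 329.5, 77.5 and 96.4 CPM. The LPS+ET gradients all lay below the LPS gradients, while LPS+ET+KU LUL16 lay just above the lowest LPS gradient. Both differences were log2 -1.44 (SE 0.42, adjusted p = 0.0249, not called) for LPS+ET and log2 -1.85 (SE 0.43, adjusted p = 0.00778, called) for LPS+ET+KU. With the pool as a replicate block the LPS+ET difference was called (edgeR, adjusted p = 0.000524). Without the block, the LPS+ET+KU call was lost in 9 of 12 fits that left out 1 gradient, with adjusted p up to 0.0278. It was also lost with equal weight per fraction (limma, log2 -1.56, adjusted p = 0.0191).

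Ccnb1, the cyclin that carries Cdk1 into the nucleus at mitotic entry, fell under both treatments. LPS gradients held 87.5, 99.1, 110.1 and 102 CPM (LUL15 to LUL18), LPS+ET gradients 38.1, 24.6, 40.7 and 37.5, and LPS+ET+KU gradients 20.8, 28.9, 22.9 and 16.6. No drug-treated gradient came near an LPS gradient. The log2 difference from LPS was -1.50 (SE 0.20, adjusted p = 0.000166) in LPS+ET and -2.16 (SE 0.21, adjusted p = 2.22e-05) in LPS+ET+KU, which is 2.82-fold and 4.46-fold lower.

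Ccnb2, the Golgi-associated B-type cyclin, fell by less. It held 118, 137, 110.2 and 141 CPM in the LPS gradients, 54.9, 45.8, 57.2 and 59.2 in LPS+ET, and 38.98, 71.1, 44.1 and 38.5 in LPS+ET+KU. Neither drug group overlapped LPS. The fall was 2.33-fold (log2 -1.22, SE 0.21, adjusted p = 0.000881) in LPS+ET and 2.63-fold (log2 -1.39, SE 0.21, adjusted p = 0.000537) in LPS+ET+KU.

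Ccna2, the cyclin of S and G2 phase, was the most even gene in LPS at 130.5, 127, 138 and 137 CPM. LPS+ET gradients spread widely, at 90.8, 25.8, 119 and 95.8 CPM, with LUL16 far below the others, and LPS+ET+KU gradients held 45.5, 39.1, 62.8 and 45.4 CPM. The difference from LPS did not pass the test in LPS+ET (log2 -0.68, SE 0.33, adjusted p = 0.168), although all 4 LPS+ET gradients lay below all LPS gradients. With LPS+ET+KU it did (log2 -1.47, SE 0.34, adjusted p = 0.00822), but the call was lost in 10 of 12 fits that left out 1 gradient (adjusted p up to 0.0258) and with equal weight per fraction (limma, adjusted p = 0.0143). With 1 gradient left out it was kept without LPS+ET LUL16 or LPS+ET LUL17, gradients of the group not compared, which enter through the shared estimate of the spread.

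Plk1, the Polo kinase of mitotic entry and spindle assembly, had the largest fall of the 10 genes in both comparisons. Its LPS level was 451, 541, 502 and 471 CPM in LUL15 to LUL18. LPS+ET gradients held 139, 76.9, 79.6 and 78.0 CPM and LPS+ET+KU gradients 56.1, 121, 45.2 and 50.4 CPM. Every drug-treated gradient lay far below the lowest LPS gradient. The mean level was 491 ± 39.2 CPM in LPS, 93.5 ± 30.6 under LPS+ET and 68.3 ± 35.7 with LPS+ET+KU. The fitted fall was 5.25-fold in LPS+ET (log2 -2.39, SE 0.32, adjusted p = 0.000134) and 7.18-fold in LPS+ET+KU (log2 -2.85, SE 0.32, adjusted p = 7.05e-05). Among genes averaging 100 or more counts a gradient, its level ranked at percentile 96.0 in LPS, 78.9 under LPS+ET and 72.3 with LPS+ET+KU.

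The 2 Aurora kinases differed in their response. Aurka, the kinase of centrosomes and spindle poles, held 201, 220.3, 178 and 162 CPM in LPS, 78.2, 48.0, 62.0 and 59.1 in LPS+ET, and 37.7, 83.7, 35.9 and 31.3 in LPS+ET+KU. The drug-treated gradients all lay below LPS, and the fall was 3.08-fold in LPS+ET (log2 -1.62, SE 0.29, adjusted p = 0.00127) and 4.03-fold in LPS+ET+KU (log2 -2.01, SE 0.29, adjusted p = 0.000456). Aurkb, the kinase of the chromosomal passenger complex, held 57.7, 57.4, 60.1 and 50.2 CPM in LPS and 52.5, 48.0, 67.5 and 47.0 in LPS+ET, groups that overlapped (log2 -0.07, SE 0.20, adjusted p = 0.85). Under LPS+ET+KU it held 26.3, 40.5, 30.5 and 21.6 CPM, all below LPS (log2 -0.92, SE 0.20, adjusted p = 0.00532). That call was lost in 7 of 12 fits that left out 1 gradient (adjusted p up to 0.0194), with log2 differences of -1.11 to -0.80, and with equal weight per fraction (limma, log2 -0.65, adjusted p = 0.0694). The ratio of the Auroras within a gradient is described further on.

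Of the spindle checkpoint genes, Bub1b fell in both comparisons. Its LPS gradients held 87.5, 88.6, 107.5 and 82.3 CPM, its LPS+ET gradients 58.8, 38.3, 40.2 and 41.1, and its LPS+ET+KU gradients 28.7, 40.3, 22.4 and 23.2, with no overlap with LPS. The log2 difference was -1.03 (SE 0.21, adjusted p = 0.00332) for LPS+ET and -1.67 (SE 0.22, adjusted p = 0.000195) for LPS+ET+KU. Without LPS LUL17, LPS+ET LUL17 or LPS+ET LUL18 the LPS+ET call was lost (adjusted p up to 0.0145), as it was with equal weight per fraction (limma, log2 -0.71, adjusted p = 0.0684).

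Bub1 and Ttk were the least abundant of the 10. Bub1, which marks centromeric chromatin for cohesion protection and the checkpoint, held 9.99, 10.6, 10.3 and 13.9 CPM in LPS, 10.4, 13.0, 8.32 and 8.86 in LPS+ET, and 6.83, 7.17, 5.95 and 6.22 in LPS+ET+KU. LPS+ET overlapped LPS (log2 -0.15, SE 0.19, adjusted p = 0.643), and LPS+ET+KU lay below LPS in all gradients without a call (log2 -0.77, SE 0.19, adjusted p = 0.0117). Ttk, the kinase that starts checkpoint signalling, held 16.5, 17.5, 13.5 and 17.5 CPM in LPS, 12.9, 12.0, 7.78 and 10.3 in LPS+ET, and 8.14, 15.3, 6.15 and 8.22 in LPS+ET+KU. The log2 differences were -0.60 (SE 0.27, adjusted p = 0.127) and -0.77 (SE 0.26, adjusted p = 0.0504), neither called. With the replicate block both genes were called in LPS+ET+KU against LPS (adjusted p = 0.00267 for Bub1 and 0.00246 for Ttk), and without LPS+ET+KU LUL16 the Ttk difference was called (log2 -1.12, adjusted p = 0.00249). Between 68 and 186 counts of Bub1 and between 77 and 338 of Ttk stood behind each gradient value of these 2 genes, against 1172 to 14965 for Cdk1.

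**Figure D2:**
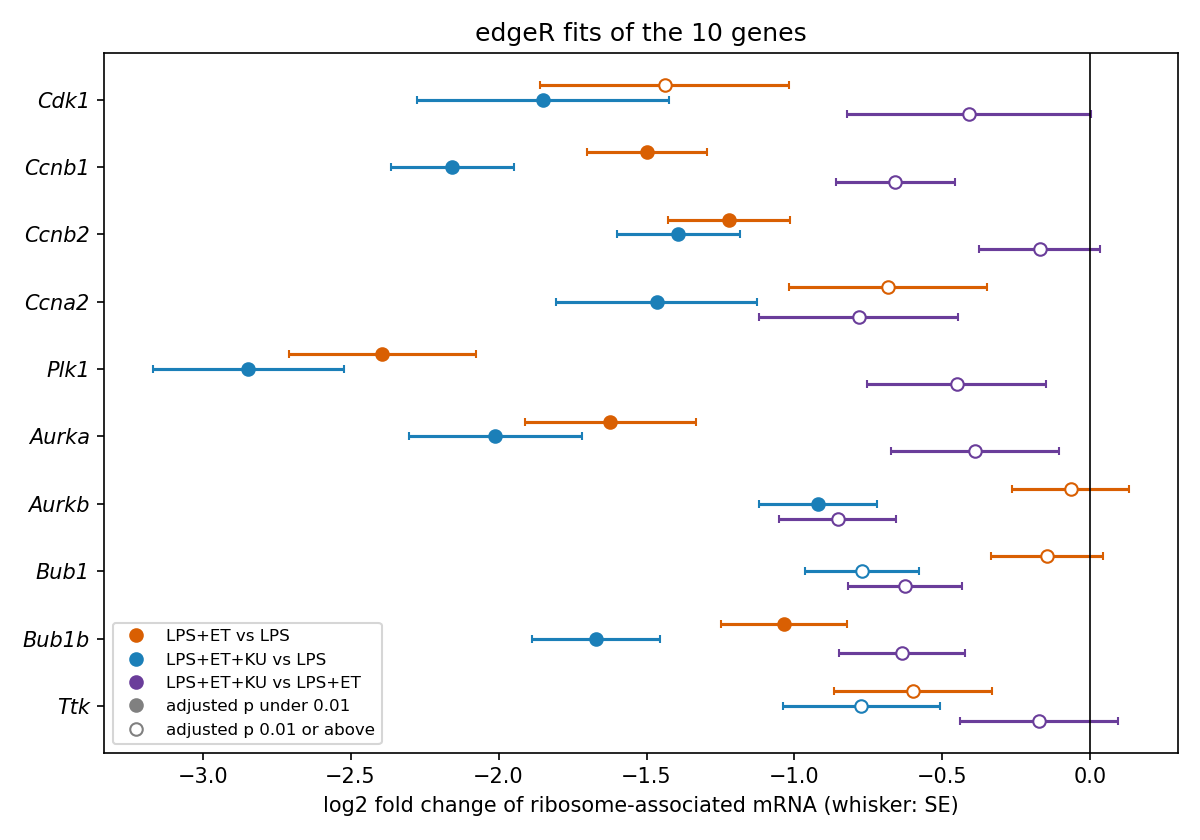
Fitted log2 fold change of ribosome-associated mRNA (horizontal axis) with its SE for the 10 genes in the 3 comparisons, filled where the adjusted p was under 0.01. Plk1 lies farthest left at -2.39 and -2.85, while Aurkb and Bub1 lie near 0 in LPS+ET against LPS.

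The order of the levels shifted with treatment. In LPS it ran Cdk1, Plk1, Aurka, Ccna2, Ccnb2, Ccnb1, Bub1b, Aurkb, Ttk and Bub1. Neighbours whose gradients overlapped were Cdk1 with Plk1, Ccna2 with Ccnb2, Ccnb1 with Bub1b, and Ttk with Bub1. In LPS+ET Cdk1 stood apart from the others at 208 ± 44.5 CPM, and the genes from Plk1 (93.5 ± 30.6) down to Ccnb1 (35.2 ± 7.25) overlapped with their neighbours. In LPS+ET+KU all neighbours overlapped except Ccnb1 (22.3 ± 5.14) and Ttk (9.46 ± 4.03).

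With ATM inhibited during the damage, the levels were compared directly between LPS+ET+KU and LPS+ET. With edgeR 0 of the 10 genes were called, where 0.235% of all genes were called lower, and 5 of the 10 had an unadjusted p under 0.05, as had 15.9% of all genes in either direction. DESeq2 called 1 of the 10, Aurkb (adjusted p = 0.00287), without a share of all genes to set beside it. All 10 fitted differences were negative, from log2 -0.85 for Aurkb to -0.17 for Ttk and Ccnb2 (median -0.54, against 0.04 over all genes). Aurkb (log2 -0.85, SE 0.20, adjusted p = 0.0412) and Bub1 (log2 -0.63, SE 0.19, adjusted p = 0.112) were the 2 genes whose LPS+ET+KU gradients all lay below the LPS+ET gradients, as for 4.75% of all genes. With equal weight per fraction the drug groups overlapped for both genes. LPS+ET+KU LUL16 then held 44.3 CPM of Aurkb, against 33.7 (LUL16) to 53.5 (LUL17) in LPS+ET. It held 9.87 CPM of Bub1, against 8.11 (LUL17) to 9.71 (LUL15) in LPS+ET. With the pool as a replicate block Aurkb was called (log2 -0.87, adjusted p = 0.00287), where 3.59% of all genes were called lower. For the other 8 genes LPS+ET+KU was lower in 3 of 4 pools and higher in LUL16, the pool in which LPS+ET was the lowest gradient for 6 of the 10 genes and LPS+ET+KU the highest for 9. Without LPS+ET LUL16 the Ccna2 difference was called (log2 -1.08, adjusted p = 0.00582).

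Monosomes, light and heavy polysomes were then compared separately, on the summed counts of each class. Monosomes held enough counts for 9 of the 10 genes (all but Bub1). There 5 fell in LPS+ET against LPS (3.08% of all genes called lower), namely Cdk1, Ccnb1, Ccnb2, Plk1 and Aurka, and the same 5 fell in LPS+ET+KU against LPS (2.26% of all genes). In light polysomes those 5 fell in LPS+ET (4.07% of all genes), and Ccnb1, Ccnb2, Plk1, Aurka and Bub1b fell in LPS+ET+KU (3.24%). In heavy polysomes Ccnb1, Ccnb2, Plk1 and Aurka fell in LPS+ET (3.55% of all genes), joined by Ccna2 and Bub1b in LPS+ET+KU (3.01%). Of the class calls, those of Ccnb1 and Plk1 were kept in 12 of 12 fits that left out 1 gradient, and those of Aurka were too except in heavy polysomes of LPS+ET, where 8 of 12 fits lost it (without any 1 of the 8 gradients compared, adjusted p up to 0.0313). Ccnb2 lost its call in 4 to 6 of 12 fits in each class and comparison (adjusted p up to 0.02), always with a gradient of the groups compared left out. Cdk1 in light polysomes of LPS+ET lost it in 6 of 12 fits (without LPS LUL15, LUL16 or LUL18 or LPS+ET LUL15, LUL17 or LUL18, adjusted p up to 0.0157). In LPS+ET+KU, Ccna2 lost its heavy polysome call in 10 of 12 fits (all but those without LPS+ET LUL16 or LUL17, adjusted p up to 0.031), and Bub1b lost its call in light polysomes without LPS LUL15 (adjusted p = 0.0116) and in heavy polysomes without LPS+ET+KU LUL18 (adjusted p = 0.0105).

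With the pool as a replicate block no class call was lost and more members were called. In monosomes edgeR then called 6 for LPS+ET (10.7% of all genes called lower), with Ccna2 added (log2 -0.92, adjusted p = 0.00111), and 7 for LPS+ET+KU (10.1%), with Ccna2 (log2 -1.09, adjusted p = 9.94e-05) and Bub1b (log2 -0.72, adjusted p = 0.00516) added. In light polysomes it called 7 for LPS+ET (12.1%), with Ccna2 (log2 -0.87, adjusted p = 0.00107) and Bub1b (log2 -0.69, adjusted p = 0.00373) added, and 7 for LPS+ET+KU (12.2%), with Cdk1 (log2 -1.59, adjusted p = 7.7e-06) and Ccna2 (log2 -1.19, adjusted p = 8.34e-05) added. In heavy polysomes it called 6 for LPS+ET (10.1%), with Cdk1 (log2 -1.22, adjusted p = 0.00118) and Bub1b (log2 -1.09, adjusted p = 0.00253) added, and 9 for LPS+ET+KU (10.3%), with Cdk1 (log2 -1.89, adjusted p = 5.6e-05), Aurkb (log2 -0.91, adjusted p = 0.00146) and Ttk (log2 -0.88, adjusted p = 0.00625) added.

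Plk1 moved by a like amount in each class, by log2 -2.42 (SE 0.23) in monosomes, -2.41 (SE 0.22) in light and -2.27 (SE 0.43) in heavy polysomes of LPS+ET against LPS. Cdk1 was called in monosomes (log2 -1.38, SE 0.26, adjusted p = 0.00221) and light polysomes (log2 -1.71, SE 0.37, adjusted p = 0.00445) but in heavy polysomes only with the block, its spread there being wider (log2 -1.26, SE 0.51, adjusted p = 0.103 without the block). Bub1b showed log2 -0.26 (SE 0.22, adjusted p = 0.457) in monosomes, -0.68 (SE 0.22, adjusted p = 0.0441) in light and -1.04 (SE 0.30, adjusted p = 0.0261) in heavy polysomes of the same comparison, none of them called without the block and the last pair called with it. Aurkb stayed within log2 -0.22 to 0.07 in the 3 classes of LPS+ET against LPS, with adjusted p of 0.629 or more. Between the drug groups 0 members were called in monosomes (0.146% of all genes called lower), light polysomes (0.151%) and heavy polysomes (0.317%), with 2, 2 and 4 of them at an unadjusted edgeR p under 0.05, as had 13.5%, 15.3% and 14.9% of all genes. With the replicate block 1 was called in monosomes (Cdk1, log2 -0.62, adjusted p = 0.00868, with 3.12% of all genes called lower), 0 in light polysomes (3.43%) and 1 in heavy polysomes (Aurkb, log2 -0.95, adjusted p = 0.00499, with 1.57%).

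Along the single fractions, each scaled to its library total, these mRNAs had most of their signal in heavy polysomes. That share was 63.7 to 83.5% in LPS, beside 55.2% for the median gene. Equal RNA concentrations went into the libraries, so these shares do not measure the amount of an mRNA in a fraction. In LPS the mean position, each fraction weighted by the gene's CPM, ran from fraction 11.17 ± 0.23 for Ccna2 to 13.37 ± 0.21 for Bub1b, and the fraction with the highest mean share was 12 for Ccna2, 13 for Cdk1, Ccnb2, Aurka and Aurkb, 14 for Ccnb1, Plk1 and Ttk, 15 for Bub1b and 16 for Bub1. Plk1 showed the sharpest rise among the abundant genes. In LPS it went from 306 ± 115 CPM in fraction 12 to 1509 ± 219 in fraction 14, and fell to 643 ± 75.8 in fraction 16. After etoposide Plk1 held 274 ± 85.6 CPM in fraction 14 and 423 ± 310 in fraction 15, and with the ATM inhibitor 213 ± 127 in fraction 14 and 58.9 ± 17.0 in fraction 15. The LPS+ET mean in fraction 15 was carried by LUL15 at 880.3 CPM, the other 3 gradients holding 222.5 to 354.1.

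Cdk1 peaked earlier, at 1040.0 ± 618 CPM in fraction 12 and 1169 ± 370.0 in fraction 13 of LPS, and held 462 ± 153 in fraction 13 of LPS+ET and 384 ± 236 in LPS+ET+KU. The LPS means in fraction 12 include the LUL17 library of 32306 counts, with 22 counts of Cdk1 and 10 of Plk1. Ccnb1 rose from 48.0 ± 7.37 CPM in fraction 7 of LPS to 207 ± 75.9 in fraction 14. Bub1b lay mostly in heavy polysomes, which held 83.5% of its signal in LPS. It had 323 ± 24.8 CPM in fraction 15 of LPS against 32.6 ± 12.3 in fraction 7. Fraction 15 held 233 ± 94.1 CPM under LPS+ET and 66.5 ± 13.0 with LPS+ET+KU.

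**Figure D3:**
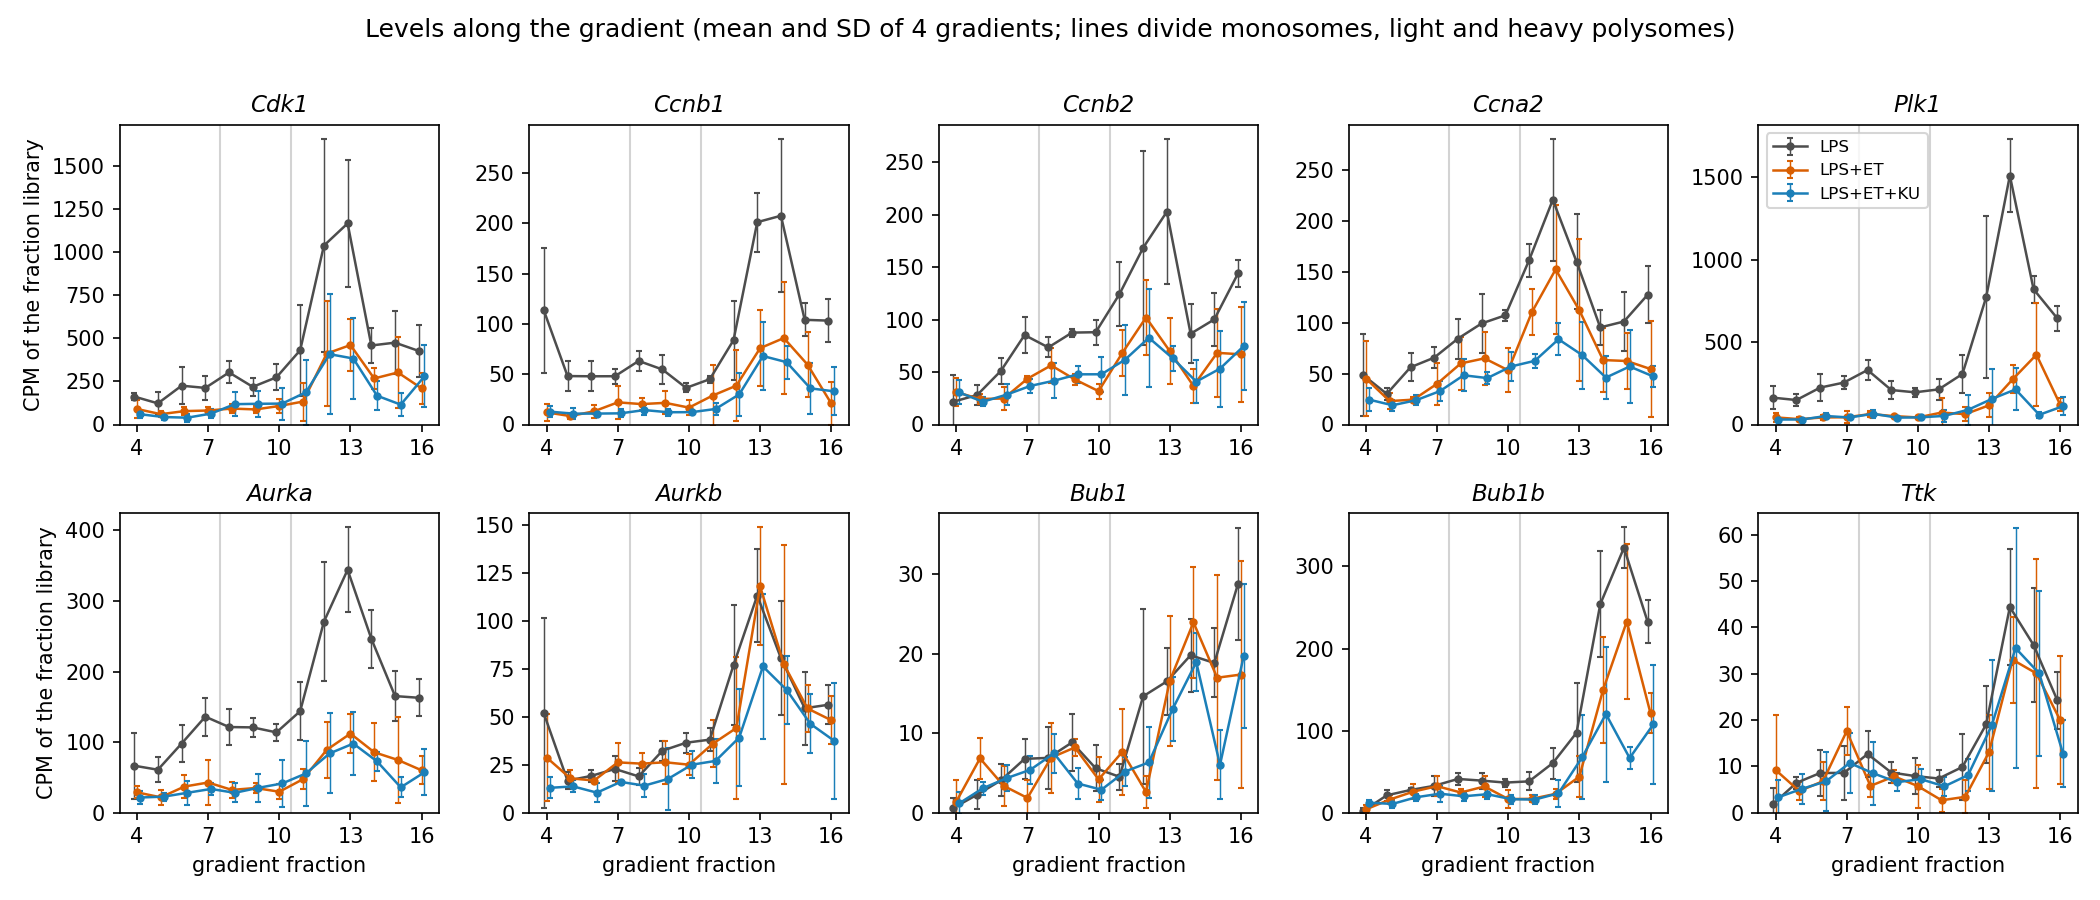
Mean level and SD (n = 4 gradients) of each gene in CPM of the fraction library (vertical axis) across fractions 4 to 16 (horizontal axis), 1 line per treatment, with grey lines between monosomes, light and heavy polysomes. Drug-treated lines keep peaks near those of LPS at a lower height for Cdk1, Ccnb1, Plk1 and Aurka, and overlap LPS for Aurkb in LPS+ET. The LPS means at fraction 4 rest on libraries of 14724 to 419646 counts.

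Mean levels were lower in LPS+ET than in LPS in 13 of 13 fractions for Cdk1, Ccnb1, Ccna2, Plk1 and Aurka, in 12 for Ccnb2 and Bub1b, in 11 for Ttk, in 9 for Aurkb and in 7 for Bub1. In LPS+ET+KU they were below LPS in 13 of 13 fractions for Cdk1, Ccnb1, Ccna2, Plk1, Aurka and Aurkb. A joint test of the treatment and treatment by fraction terms (edgeR on the single-fraction libraries of 8 gradients, treated as independent) called 7 of the 10 genes in LPS+ET against LPS, all but Aurkb, Bub1 and Ttk, where 31% of all genes were called. It called 8 in LPS+ET+KU against LPS, all but Bub1 and Ttk, where 32.7% were called. This test responds to level as well as to shape. With the replicate block Ttk was called as well in the former (adjusted p = 0.00419, 41.7% of all genes called) and Bub1 in the latter (adjusted p = 0.00964, 47.0% of all genes called). The interaction terms alone, which address shape, called 0 of the 10 in LPS+ET against LPS (1.37% of all genes) and 0 in LPS+ET+KU against LPS (3.29%). In the former Bub1 alone had an unadjusted p under 0.05 (adjusted p = 0.16), as had 13.3% of all genes, and in the latter none of the 10 did, beside 17.6% of all genes.

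Between LPS+ET+KU and LPS+ET the joint test called 0 of the 10 (8.01% of all genes called) and the interaction 0 (1.05%), with 3 and 2 members at an unadjusted edgeR p under 0.05, as had 23.9% and 9.2% of all genes. Plk1 had the smallest interaction p of the 10 (adjusted p = 0.0908), and Bub1 the next (adjusted p = 0.287). With the pool as a replicate block the Plk1 interaction was called (adjusted p = 0.00438, 3.51% of all genes called), as it was with a term for each gradient (adjusted p = 0.00208). The mean ratio of LPS+ET+KU to LPS+ET for Plk1 was lowest in fraction 15, at 0.139. Without LPS+ET LUL15, left out after its value was seen, that ratio was 0.217, and 2 of the libraries behind it (LPS+ET LUL16 and LPS+ET+KU LUL15) held under 100000 counts, with 18 and 3 counts of Plk1. Fraction 15, from the same libraries, also had the lowest such ratio for Bub1b (0.2855), Bub1 (0.354), Cdk1 (0.3818) and Aurka (0.4795). Ccnb1, Ccnb2, Ccna2, Aurkb and Ttk had theirs in other fractions. With the replicate block the joint test called 4 of the 10, Cdk1, Plk1, Bub1 and Bub1b, where 18.3% of all genes were called.

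RiboLoad, the share of a gene's signal in heavy polysomes after each fraction library was scaled to the same total, was above the median gene for all 10 in each treatment. In LPS it ran from 63.7% ± 2.49 for Ccna2 to 83.5% ± 0.77 for Bub1b, at percentiles 69.6 to 98.8 of 7999 genes averaging at least 100 counts a gradient, whose median was 55.2%. Cdk1 stood at 72.5% ± 1.09, Plk1 at 73.8% ± 1.85, Ttk at 72.7% ± 4.45 and Bub1 at 74.9% ± 5.87. Across the 10 genes RiboLoad in LPS and coding length had a Spearman correlation of 0.564, and across 7601 genes with a coding length one of 0.536. Both are descriptions across genes measured in the same libraries. The paper's RiboLoad divides a transcript's heavy polysome reads by all its reads, and no scaling of fractions is stated there. Shares from the counts as deposited, used as an alternative below, are closer to that definition.

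By limma on the log2 odds of RiboLoad, 0 of the 10 genes passed for LPS+ET against LPS (0.313% of all genes called), 0 in LPS+ET+KU against LPS (0.875%) and 0 between the drug groups (0.0%), with 2, 2 and 1 members at an unadjusted p under 0.05, as had 20.6%, 21% and 8.55% of all genes. Bub1b went from 82.5, 83.2, 84.3 and 83.8% in LPS to 78.8, 78.2, 78.3 and 83.5% in LPS+ET and 70.4, 82.1, 74.4 and 74.3% in LPS+ET+KU. The LPS+ET+KU gradients all lay below LPS, without a call (log2 odds -0.71, SE 0.22, adjusted p = 0.0797). Ccnb1 went the other way, from 59.2, 65.9, 64.0 and 69.1% in LPS to 69.0, 81.2, 71.4 and 71.1% in LPS+ET and 76.8, 74.7, 70.2 and 74.8% in LPS+ET+KU. All its LPS+ET+KU gradients lay above all LPS gradients. Its log2 odds differed by 0.60 (SE 0.23, adjusted p = 0.17) and 0.65 (SE 0.23, adjusted p = 0.125), neither called. From the counts as deposited, without scaling the fractions, the latter difference was -0.33. In Ttk LPS+ET lay below LPS in all gradients, at 64.1% ± 3.62 against 72.7% ± 4.45 (log2 odds -0.58, SE 0.21, adjusted p = 0.139). No share of all genes with RiboLoad gradients apart is given, so these separations of Bub1b, Ccnb1 and Ttk cannot be set against one. Plk1 stood at 76.0% ± 4.05 under LPS+ET and 66.0% ± 8.00 with LPS+ET+KU (log2 odds -0.69, SE 0.26, adjusted p = 0.471).

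**Figure D4:**
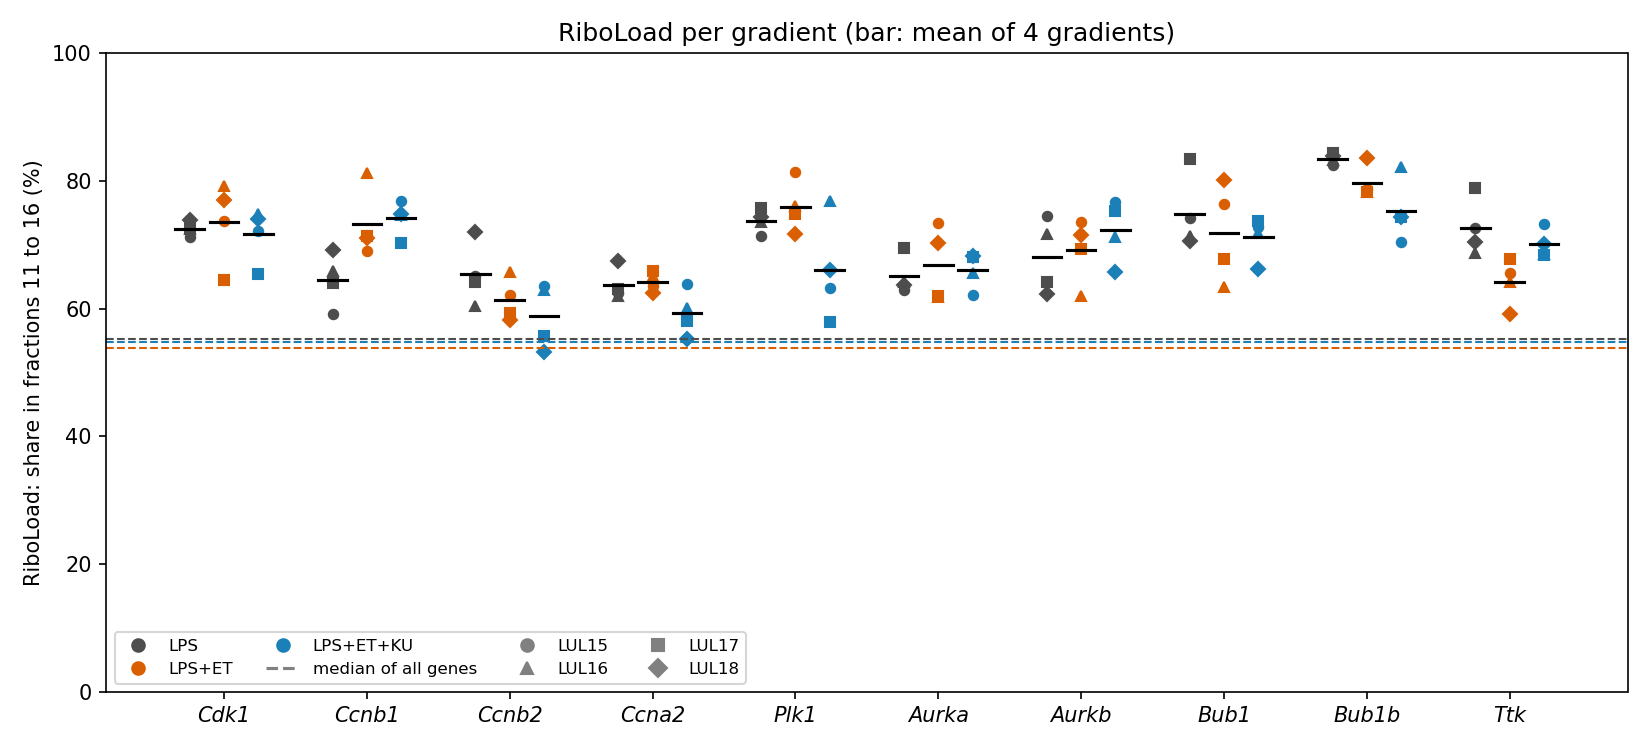
RiboLoad in percent (vertical axis, 0 to 100) of each gene and gradient, coloured by treatment with the pool as the symbol, bar for the mean of 4 gradients and dashed lines for the median of 7999 genes. All treatment means lie above the dashed lines, and the treatments overlap for most genes.

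Related genes differed in their response within the same gradient. The pairs Aurka and Aurkb, Ccnb1 and Ccnb2, and Bub1b and Bub1 were chosen after the levels had been seen, so their ratios are described without a test. The log2 ratio of Aurka to Aurkb was 1.80, 1.94, 1.57 and 1.69 in LPS (LUL15 to LUL18), 0.57, 0.0, -0.12 and 0.33 in LPS+ET, and 0.52, 1.05, 0.24 and 0.53 in LPS+ET+KU. Aurka thus had 2.97 to 3.84 times the level of Aurkb in LPS and 0.919 to 1.49 times in LPS+ET, and neither drug group overlapped LPS. The log2 ratio of Ccnb1 to Ccnb2 was -0.34 ± 0.23 in LPS, -0.64 ± 0.19 under LPS+ET and -1.09 ± 0.19 with LPS+ET+KU, without overlap between any pair of groups. Margins between neighbouring groups were narrow. LPS LUL16 lay at -0.472 beside LPS+ET LUL17 at -0.490, and LPS+ET LUL16 at -0.900 beside LPS+ET+KU LUL15 at -0.906. Bub1b to Bub1 had a log2 ratio of 3.04 ± 0.34 in LPS, 2.14 ± 0.40 under LPS+ET and 2.09 ± 0.28 with LPS+ET+KU, the last pair overlapping. With each fraction given equal weight, the Aurora ratio was 1.73 ± 0.27, 0.35 ± 0.28 and 0.57 ± 0.33, and the cyclin B ratio -0.12 ± 0.28, -0.64 ± 0.25 and -0.93 ± 0.19. The Bub1b to Bub1 ratio was then 3.12 ± 0.28, 2.63 ± 0.24 and 2.38 ± 0.30. In that weighting the drug groups overlapped each other in the cyclin B ratio, and LPS overlapped both drug groups in the Bub1b to Bub1 ratio.

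**Figure D5:**
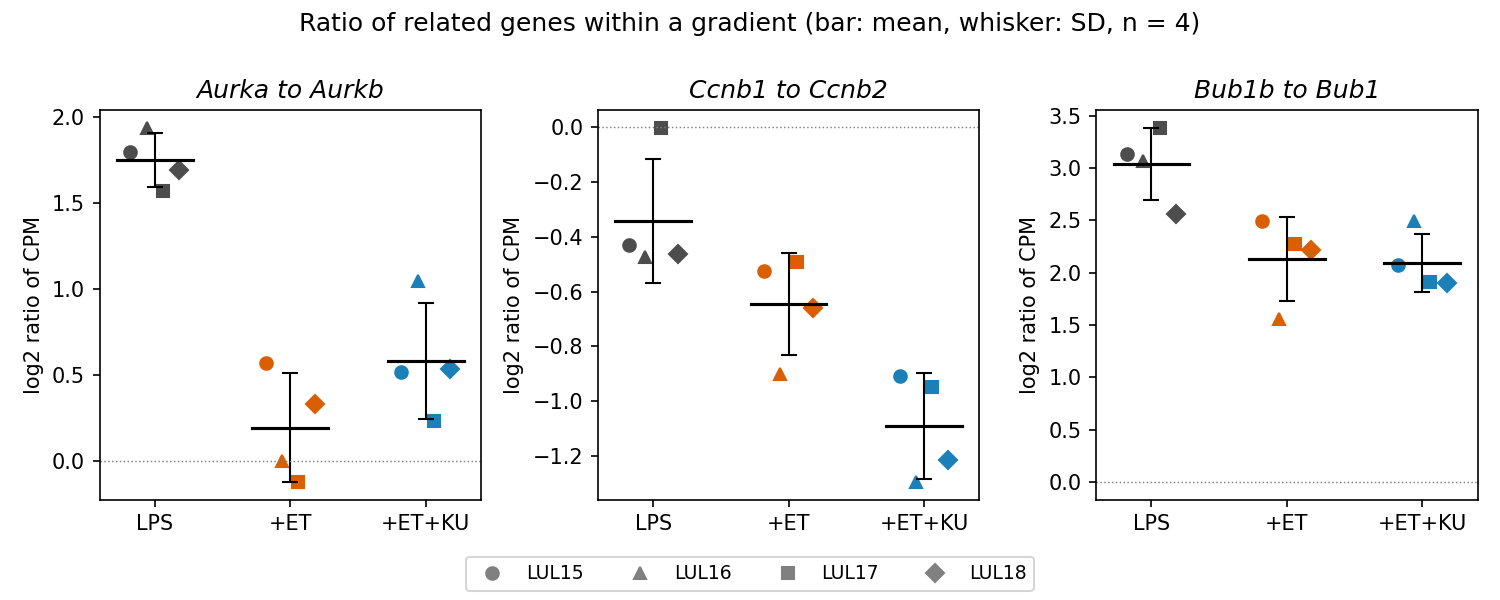
Log2 ratio of the CPM of related genes within each gradient (vertical axis, dotted line at equal levels) for 3 pairs and 3 treatments, 1 point per gradient with its pool as the symbol, bar for the mean and whisker for the SD (n = 4). The Aurka to Aurkb ratio is 1.75 ± 0.16 in LPS and 0.20 ± 0.32 in LPS+ET, with LPS apart from both drug groups in that panel.

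Other genes of the pathway were read from lists of symbols. Over all genes tested, 4.81% were called lower in LPS+ET against LPS and 4.42% in LPS+ET+KU against LPS. In LPS+ET, 1005 of 12755 genes were called higher. Against these shares 1 call in a list does not stand out. Among regulators of mitotic entry (Wee1 and Foxm1 among them) 0 of 10 tested were called in LPS+ET against LPS and 1 fell in LPS+ET+KU against LPS. Of 10 partners of the Aurora and Polo kinases 3 fell under LPS+ET and 5 with LPS+ET+KU, none rose, and the list's median log2 differences were -0.97 and -1.10. The 3 were Bora (log2 -1.50, SE 0.22, adjusted p = 0.000317), which helps Aurka activate Plk1, Tpx2 (log2 -1.24, SE 0.29, adjusted p = 0.00756), which brings Aurka to the spindle, and Cep192 (log2 -0.94, SE 0.21, adjusted p = 0.00473), a centrosome scaffold of Plk1 and Aurka. Of 11 other spindle checkpoint genes 1 fell in LPS+ET, Casc5, the kinetochore platform of Bub1 and Bub1b (log2 -1.17, SE 0.22, adjusted p = 0.00197), and 2 fell in LPS+ET+KU.

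Of 18 genes of the anaphase-promoting complex and its regulators 2 fell under LPS+ET and 3 with LPS+ET+KU. The 2 were Ube2c, the ubiquitin-conjugating enzyme that helps destroy cyclin B (183 ± 24.4 CPM in LPS and 46.6 ± 8.54 in LPS+ET, log2 -1.97, SE 0.22, adjusted p = 3.54e-05), and Fbxo5, an inhibitor of the complex (log2 -0.999, SE 0.23, adjusted p = 0.00633). Among 4 tested paralogs of the members, 1 rose and 1 fell in LPS+ET. Plk2, a Polo kinase known as a p53 target, rose from 0.967 ± 0.38 CPM in LPS to 24.2 ± 5.10 in LPS+ET (log2 4.67, SE 0.38, adjusted p = 3.34e-06) and 14.1 ± 6.08 in LPS+ET+KU (log2 3.89, SE 0.37, adjusted p = 2.22e-05). Plk4, the kinase of centriole duplication, fell in LPS+ET (log2 -0.71, SE 0.16, adjusted p = 0.00538).

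For comparison, 0 of 30 DNA replication genes were called in LPS+ET (median log2 -0.04) and 4 fell in LPS+ET+KU (median -0.18), and 0 of 7 G1 cyclins and kinases were called in either (medians -0.49 and -0.47). Between the drug groups edgeR called 0 genes of these lists, where 58 of 12755 genes were called in either direction. Of the 6 B cell markers 1 was called, Cd22, a receptor that restrains B cell receptor signalling (log2 -2.12, SE 0.40, adjusted p = 0.00171 in LPS+ET). All 6 had negative log2 differences in LPS+ET (median -0.76) and 5 of 6 in LPS+ET+KU (median -0.56), and their part in the members' differences was not tested. None of the myeloid and tested T cell markers were called.

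Among 8000 genes averaging 100 counts a gradient or more, members included (1 more than for RiboLoad, which could not be computed in every gradient for that gene), those whose log2(CPM + 1) followed the mean of the 10 standardised members most closely over the 12 gradients were Kif22 (Pearson r = 0.977), Cd180 (0.972), Prc1, Tpx2 and Zcchc8 (0.969 each). Kif22, a chromosome-arm motor, went from 47.7 to 22.4 and 14.8 CPM in LPS, LPS+ET and LPS+ET+KU, Cd180, a Toll-like receptor homologue of B cells, from 82.2 to 26.5 and 13.0, and Prc1, which bundles spindle midzone microtubules, from 91.2 to 38.3 and 27.4. Over the 45 pairs of the 10 genes, r ran from 0.355 to 0.985 (median 0.755) across the 12 gradients and from -0.729 to 0.925 (median 0.544) once each treatment's mean had been taken away. These correlations share libraries and treatment groups and are descriptions.

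The single fraction 17 library, from an LPS gradient, held 777 counts, of which 2 were of Aurkb and 0 of the other members. Both lie under the 3 counts that a count of 0 allows, so no level is given for this fraction.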

How the data were processed

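Splenic B cells of 3 treatments were separated on 4 gradients each, described as 4 biological replicates in the study's methods, and 3′ end tags of fractions 4 to 16 were sequenced. The sucrose range is given as 10 to 30% in the labels of the samples and differs in the series text. The authors loaded equal RNA concentrations into the libraries, so a library total does not measure the RNA of its fraction. The authors removed PCR duplicates by barcode, mapped reads to GRCm38 and tallied tags at selected poly(A) sites, and the deposited values are raw counts per gene. The submitters' processing notes name TopHat2 2.0.12, HTSeq and DESeq2 1.6.3. Per the column names 79 columns matched 1 sample and 78 matched a treatment and fraction only, so gradients are named by treatment and library pool.

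Counts were summed per gradient and per class of fractions and tested with edgeR 4.0.16 (quasi-likelihood, TMM, filterByExpr, all 12 gradients in 1 fit) in R 4.3.3, with Benjamini-Hochberg adjusted p under 0.01 as a call. The profile and interaction tests used the single-fraction libraries of the 8 gradients compared. RiboLoad was tested with limma 3.58.1 on log2 odds for genes averaging at least 100 counts a gradient. CPM of a gradient divided counts by the gradient's total multiplied by its TMM factor. CPM of a single fraction divided counts by the library's total, without that factor. Tests were two-sided, and the scripts were tested on simulated data. Floors and counts cover counting error only. Gradients of the same pool deviated together (Pearson r from 0.361 to 0.837, 12 of 12 pairs over 0.1), so pools were taken to pair the gradients and values with a pool block are given where they changed a call.

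The members and gene lists were chosen with earlier results of these data known. All 10 members are named, with the 5 genes most like their mean and up to 3 genes per list with the largest fold change among those called in LPS+ET against LPS. Alternatives were DESeq2 1.42.0, RLE factors, no count filter, 8 gradients only, equal weight per fraction, an adjusted p under 0.05, the block, leaving out each gradient, and for RiboLoad the deposited counts and a minimum of 30. All fits that left out a gradient were made without the block, so they do not show how blocked calls depend on single gradients. Leaving out libraries under 100000 counts, and leaving out each LPS+ET gradient from the Plk1 level in fraction 15, were added after the data were seen.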

Additional observations from a re-analysis of the deposited data

Results flagged for a closer look

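Each of 60 groups of 4 gradients (10 genes, 3 treatments, level and RiboLoad) was checked for a gradient far from the others by Dixon's ratio, and 6 had one, where chance flags about 1 in 20. Plk1 held 139.3 CPM in LPS+ET LUL15, above the other LPS+ET gradients at 76.9 to 79.6 CPM. Bub1b held 58.75 CPM in the same gradient, where the others held 38.3 to 41.1. In LPS+ET+KU LUL16, the deepest gradient, Plk1 held 121.3 CPM against 45.2 to 56.1 in the others, and Aurka held 83.73 CPM against 31.3 to 37.7. Bub1 held 13.91 CPM in LPS LUL18, where the others held 9.99 to 10.6. The RiboLoad of Bub1b was 83.55% in LPS+ET LUL18, against 78.2 to 78.8% in the other LPS+ET gradients. The cause of these values was not tested.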

How the results depend on the processing

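In ribosome-associated mRNA, Ccnb1, Ccnb2, Plk1 and Aurka were called against LPS in both drug groups, and Bub1b in LPS+ET+KU, in 12 of 12 fits that left out 1 gradient. For LPS+ET+KU against LPS, ribosome-associated mRNA, 5 members were called with equal weight per fraction, and 5 to 8 with 1 gradient left out (5 without LPS LUL15, LUL16 or LUL18 or LPS+ET+KU LUL15, LUL17 or LUL18). For LPS+ET+KU against LPS+ET, 1 member was called with the replicate block, 1 with DESeq2, 1 at an adjusted p under 0.05 (Aurkb each time), and 0 to 1 with 1 gradient left out (Ccna2, without LPS+ET LUL16). The replicate block gave 1 call in monosomes, 1 in heavy polysomes, 1 interaction and 4 profiles in that comparison, a term for each gradient gave 1 interaction, and profiles numbered 1 with genes of at least 1 count in any library and 0 to 3 with 1 gradient left out (3 without LPS+ET LUL16, 2 without LPS+ET+KU LUL16).

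With 1 gradient left out, monosomes gave 4 to 5 calls for LPS+ET against LPS and 4 to 6 for LPS+ET+KU against LPS, and light polysomes gave 3 to 5 calls for LPS+ET against LPS (3 without LPS LUL15 or LUL16 or LPS+ET LUL15, LUL17 or LUL18) and 3 to 6 for LPS+ET+KU against LPS (3 without LPS LUL15). Heavy polysomes gave 2 to 5 (2 without LPS LUL15, LUL16 or LUL18 or LPS+ET LUL15, LUL17 or LUL18), 3 to 7 (3 without LPS+ET+KU LUL18) and, between the drug groups, 0 to 1 (1 without LPS+ET LUL16). The cause was not tested. For counts called under alternatives other than the block no share of all genes is given, so they cannot be set against one.

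No RiboLoad difference of a member was called, and several changed sign. From the counts as deposited the log2 odds differed by -0.0275 for Ccna2 in LPS+ET against LPS. In LPS+ET+KU against LPS they differed by -0.33 for Ccnb1, -0.52 for Aurka and -0.69 for Aurkb, and against LPS+ET by -0.70 for Ccnb1, -0.87 for Aurkb and -0.65 for Ttk. With 1 gradient left out, the differences in LPS+ET against LPS ran from -0.0331 to 0.32 for Cdk1, -0.00939 to 0.10 for Ccna2, -0.0228 to 0.23 for Aurka, -0.0683 to 0.22 for Aurkb and -0.42 to 0.0182 for Bub1. In LPS+ET+KU they ran from -0.13 to 0.0856 for Cdk1 against LPS, and against LPS+ET from -0.0482 to 0.26 for Ccnb1, -0.18 to 0.0797 for Aurka and -0.28 to 0.12 for Bub1. Depth limits Bub1 and Ttk most, with at most 186 counts of Bub1 and 338 of Ttk in a gradient.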
